A study of Mus musculus with 8 samples.

Results

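Among the 11723 genes listed for sorted CD8 T cells, 8 encode receptor chains for cytokines that act through the common gamma chain, through gp130 or through interleukin-10: Il7r, Il4ra, Il21r, Il6ra, Il6st, Il27ra, Il10ra and Il10rb. They were taken by symbol, from a fixed list of names that was chosen with earlier results of these data known. All 8 had a value in every library. Mice lacking interleukin-2 (IL-2-KO) gave 4 libraries and wild-type mice (WT) gave 4. All mice were BALB/c, an inbred strain, and 12 days old, and the cells were sorted from peripheral lymph nodes on a flow cytometer. The IL-2-KO libraries 1 to 4 were made from 26.7, 42.6, 1.1 and 0.4 M cells (M, 1e6), and the labels name neither the mutant allele nor any pooling for them. The WT libraries 1 to 4 were made from 115, 28.7, 1.3 and 1.3 M cells of 5, 5, 3 and 2 pooled mice. The series' design text also mentions spleen and heterozygous controls, which the sample labels do not. It describes the libraries of each group as biological replicates.

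Interleukin-7, interleukin-4 and interleukin-21 each bind a private chain (IL-7 receptor alpha, IL-4 receptor alpha, IL-21 receptor) that pairs with the common gamma chain encoded by Il2rg, the chain that interleukin-2 also uses. Naive CD8 T cells depend on interleukin-7 for survival, and Il7r is known to be turned down after strong stimulation and kept in memory precursors. Interleukin-6 binds the IL-6 receptor alpha chain and interleukin-27 the chain encoded by Il27ra, and both then engage gp130, the signalling chain encoded by Il6st, which activates STAT3. Interleukin-10 binds a private chain, Il10ra, and a chain shared with other cytokines of its family, Il10rb, and signals mainly through STAT3.

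The promoters of 3 of these genes are shown to give their place in the genome. They are the bases before the annotated gene span within the RefSeq promoter windows (GRCm38.p6, on the gene's own strand), which cover the 250 bases before a start. Il6st is a gene with a lower level, Il6ra is its partner, and Il7r is the gene with the widest spread. The stretches are chr13:112463820-112464069 on the plus strand for Il6st, chr3:89913197-89913446 on the minus strand for Il6ra and chr15:9529942-9530126 on the minus strand for Il7r. The Il7r window uses a start inside the gene span given below, so its last 65 bases lie in that span and are not shown. Capitals mark matches, on either strand, to the STAT motif TTCNNNGAA or to the forkhead motif TGTTTAC.
Il6st: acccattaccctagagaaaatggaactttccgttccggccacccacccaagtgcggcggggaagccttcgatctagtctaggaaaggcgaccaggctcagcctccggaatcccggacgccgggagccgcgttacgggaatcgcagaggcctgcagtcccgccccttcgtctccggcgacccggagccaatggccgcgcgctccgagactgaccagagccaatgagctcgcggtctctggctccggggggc
Il6ra: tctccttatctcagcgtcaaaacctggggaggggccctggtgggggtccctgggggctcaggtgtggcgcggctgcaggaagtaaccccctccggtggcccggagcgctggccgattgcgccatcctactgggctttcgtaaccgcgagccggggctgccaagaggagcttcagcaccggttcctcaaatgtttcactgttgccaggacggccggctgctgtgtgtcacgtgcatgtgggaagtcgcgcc
Il7r: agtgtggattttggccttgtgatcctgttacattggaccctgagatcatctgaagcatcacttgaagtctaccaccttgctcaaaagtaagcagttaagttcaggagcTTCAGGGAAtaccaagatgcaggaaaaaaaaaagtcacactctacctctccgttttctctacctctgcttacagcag
The Il6st and Il6ra stretches are rich in G and C (66% and 65.2%), the Il7r stretch less so (43.8%). The Il7r stretch holds TTCAGGGAA, 77 bases before the gene span, and 7.02% of the 32851 RefSeq windows of 250 bases hold a match to TTCNNNGAA. The window of Il21r also uses a start inside the gene span, and its match to TGTTTAC, a motif in 3.17% of all windows, lies 139 bases into that span. The STAT6 motif, with 1 more base in its spacer, was in 5.85% of all windows and in none of the windows of Il7r, Il4ra, Il21r, Il6ra and Il6st, the 5 of 8 receptor genes matched in the RefSeq table (the others are Il10ra, Il10rb and Il27ra). Il4ra and Il21r are neighbours on chromosome 7 (125552271 to 125579474 and 125603252 to 125634397), with 23777 bases and no other RefSeq gene between them. A match in these letters is a description and not evidence of binding.

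The libraries held 14.8 to 18.4 M counts for IL-2-KO and 11.9 to 17.4 M for WT, recovered from the steps between low values. A level of 1 count per 1e6 counts, scaled between libraries by the trimmed mean of M values (TMM-scaled CPM), rests on 11.9 to 18.6 counts, and each receptor value rests on 457 to 18569 counts. Cd8a, a defining chain of the CD8 coreceptor, stood at 1479 to 1870 CPM in IL-2-KO and 1679 to 1979 in WT. The libraries IL-2-KO replicate 3 and WT replicate 2 also carried transcripts of other cells. Cd4, the helper T cell coreceptor gene, was at 45.5 in IL-2-KO replicate 3 and 38.6 in WT replicate 2, against 2.48 or less in the other libraries. Lyz2, the lysozyme gene of myeloid cells, was at 296 and 39.97 there, against 2.85 or less in the others. Over the 5 of 12 listed myeloid and dendritic markers with a value, the summed level ran from 36.5 to 485 in IL-2-KO and from 33.8 to 124 in WT. Over the 6 CD4 and regulatory T cell markers it ran from 74.3 to 241 in IL-2-KO and from 19.7 to 96.8 in WT. Most of this sum in IL-2-KO was Ctla4, which activated CD8 T cells also express (51.5 to 171 CPM in IL-2-KO and 5.79 to 30.9 in WT), and it was the 1 of these 6 that passed. Foxp3, the regulatory T cell factor, stood at 2.69 to 3.56 in IL-2-KO and 3.92 to 4.49 in WT. Of 10 B cell markers 4 had a value, with a summed level of 131 to 190 in IL-2-KO and 19.2 to 35.9 in WT, most of which in IL-2-KO was Cd22 (110.6 to 178 CPM). Cd79a, a defining B cell gene, stood at 2.18 to 12.8 in IL-2-KO and 3.44 to 9.06 in WT. The 6 of 7 natural killer cell markers with a value, some of which activated CD8 T cells also express, summed to 677 to 994 in IL-2-KO and 521 to 588 in WT. The 4 of 6 erythroid markers with a value summed to 9.76 to 43.5 in IL-2-KO and 14.7 to 94.9 in WT. Their highest sum in each group was in replicate 4, which is not left out together with the libraries that carry Cd4 and Lyz2. The part of all these cells in the receptor values was not tested. Values without IL-2-KO replicate 3 and WT replicate 2 are given beside the receptors concerned.

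One receptor gene rose in the absence of interleukin-2, 2 fell and 5 did not pass the test. Il10ra was higher, while Il6st and Il21r were lower. Among all 11530 genes tested, 11.1% were called higher and 8.03% lower (limma, Benjamini-Hochberg adjustment over all genes, threshold 0.05). The 8 genes, and the gene lists below, were chosen with earlier results of these data known. Their counts are therefore not independent evidence of a direction. The median log2 change of the 8 genes was -0.15, and that of all genes tested was -0.0097. Changes are differences of log2(CPM + 0.5), IL-2-KO minus WT, each with its 95% confidence interval from limma. In bulk samples fewer cells that carry a transcript and less of it per cell cannot be told apart.

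**Figure D1:**
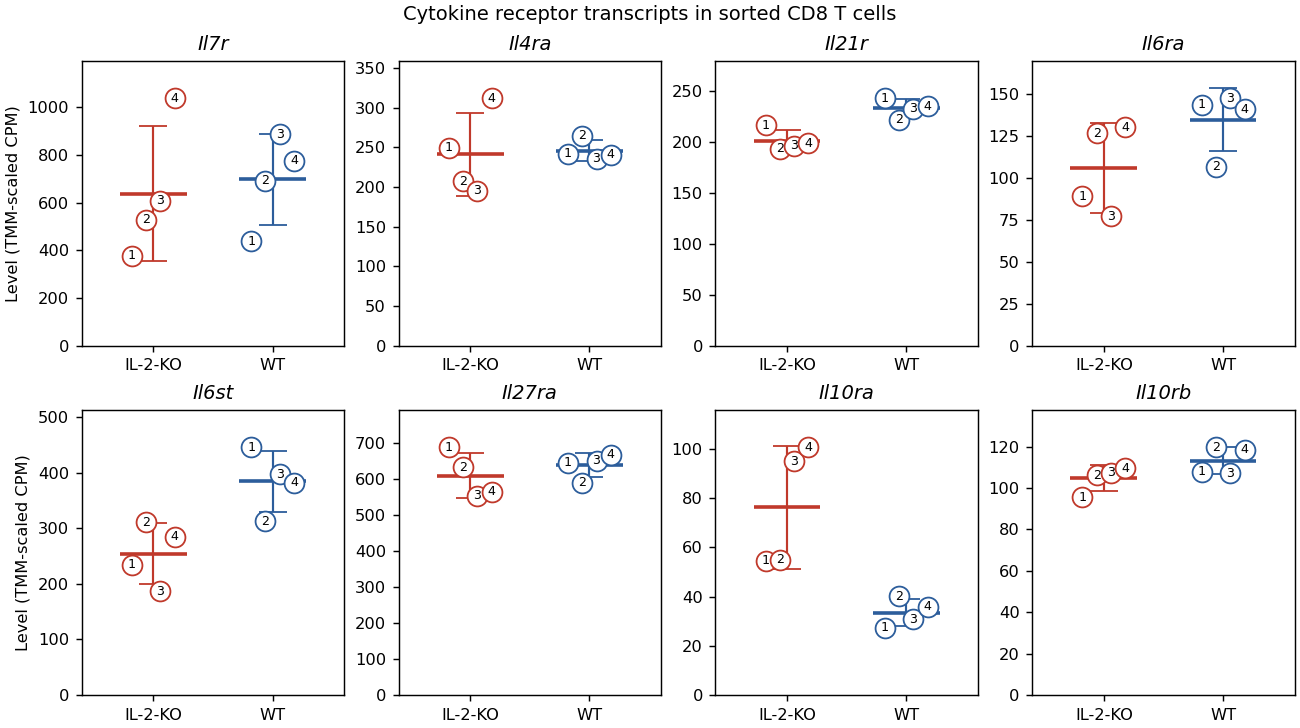
Level of each of the 8 receptor genes (TMM-scaled CPM, linear axis from 0) in the 4 IL-2-KO libraries (red, left) and the 4 WT libraries (blue, right). Numbers in the points are replicate numbers, the thick line is the mean and the bar is 1 SD. Il10ra in IL-2-KO lies above every WT value, Il6st and Il21r lie below, and Il7r spans a wide range in both groups.

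**Figure D2:**
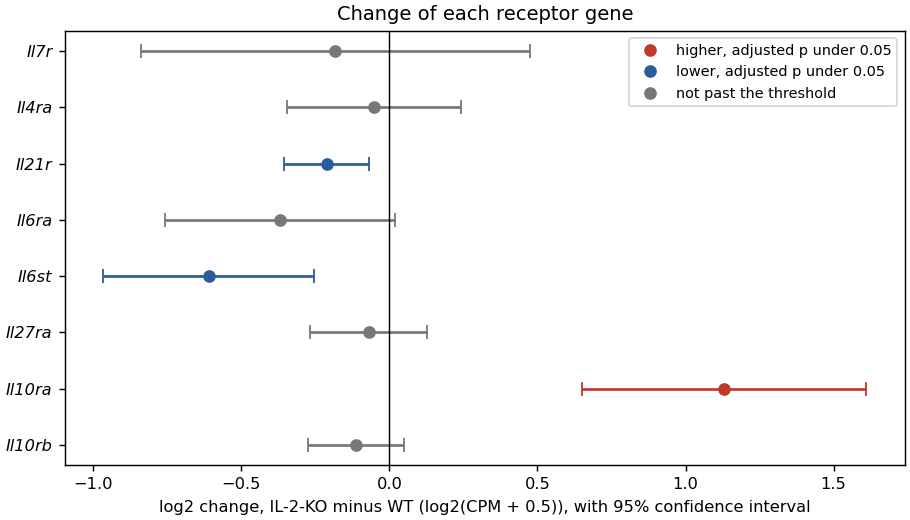
Log2 change of each receptor gene, IL-2-KO minus WT on the log2(CPM + 0.5) scale, with its 95% confidence interval by limma. Il10ra (1.13) is past the threshold upward, Il6st (-0.61) and Il21r (-0.21) are past it downward, and the interval of Il7r is the widest.

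Il10ra (Entrez 16154, chromosome 9, 45253837 to 45269149 in GRCm38, as for all genes here) encodes the chain that binds interleukin-10. It stood at 54.6, 54.97, 95.1 and 100.7 CPM in IL-2-KO replicates 1 to 4, and at 27.4, 40.1, 30.8 and 35.9 CPM in WT replicates 1 to 4. Every IL-2-KO value lay above every WT value, a separation found in that direction for 12.9% of all genes tested. The IL-2-KO mean was 76.3 ± 25.0 and the WT mean 33.5 ± 5.62 CPM (SD, n = 4 each). Il10ra rose 2.19-fold, by 1.13 on the log2 scale (0.65 to 1.61; limma adjusted p = 0.00532). The IL-2-KO libraries lay at 2 levels: both from over 2 M cells were near 55 CPM, and both from 1.1 M cells or fewer were at 95.1 and 100.7. The WT libraries did not show such a step, with means of 33.3 CPM under 2 M cells and 33.7 over 2 M cells. Among the libraries of over 2 M cells alone the log2 change was 0.72 (0.25 to 1.18; limma adjusted p = 0.128), and among those under 2 M cells it was 1.54 (1.21 to 1.87; limma adjusted p = 0.0128). The difference between these 2 changes was not tested. Without IL-2-KO replicate 3 and WT replicate 2 the log2 change was 1.10 (limma adjusted p = 0.0129).

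Il10rb (Entrez 16155, chromosome 16, 91406157 to 91425834) encodes the other chain of the interleukin-10 receptor, also used by interleukin-22 and lambda interferons. Its levels were 95.5, 106.3, 107.5 and 109.6 CPM in IL-2-KO and 107.8, 119.7, 107.2 and 118.6 CPM in WT. The groups overlapped, and the log2 change was -0.11 (-0.28 to 0.05; limma adjusted p = 0.314). This interval leaves room for a level in IL-2-KO between 0.826 and 1.03 times that of WT. The ratio of Il10ra to Il10rb within a library was 0.572, 0.517, 0.884 and 0.919 in IL-2-KO, and 0.254, 0.335, 0.287 and 0.302 in WT. All 4 IL-2-KO ratios stood above all WT ratios, as the Il10ra values alone did. The share of other gene pairs with ratios so separated was not computed.

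Il6st (Entrez 16195, chromosome 13, 112464070 to 112506860) encodes gp130. Its level was 234, 311, 187 and 285 CPM in IL-2-KO replicates 1 to 4, and 446, 313, 397 and 383 CPM in WT replicates 1 to 4. The groups did not overlap, but the highest IL-2-KO value, 311.3, and the lowest WT value, 312.6, nearly met. Of all genes tested 11.2% had every IL-2-KO value under every WT value. Il6st fell by 0.61 on the log2 scale (-0.97 to -0.25; limma adjusted p = 0.0247), with means of 254 ± 55.3 CPM in IL-2-KO and 385 ± 55.1 in WT (SD, n = 4 each). The lowest library of each group was the one with Cd4 and Lyz2 transcripts, IL-2-KO replicate 3 and WT replicate 2, and without both the log2 change was -0.57 (limma adjusted p = 0.0116). The call was lost without IL-2-KO replicate 1 (limma adjusted p = 0.0567) or without WT replicate 1, 3 or 4 (0.0758, 0.0755 and 0.0652). It was also lost with replicate number as a block (limma adjusted p = 0.0686). The same held among the libraries of over 2 M cells (log2 change -0.47, limma adjusted p = 0.379) and of under 2 M cells (-0.76, 0.127), with 2 libraries a group.

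Il6ra (Entrez 16194, chromosome 3, 89869324 to 89913196) encodes the interleukin-6 binding chain that pairs with gp130. Values of Il6ra were 89.0, 126.5, 77.0 and 129.9 CPM in IL-2-KO, and 143, 106, 147 and 141 CPM in WT. The groups overlapped through WT replicate 2, and the log2 change of -0.37 did not pass (-0.76 to 0.02; limma adjusted p = 0.169). Without IL-2-KO replicate 3 and WT replicate 2 it was -0.34 (-0.65 to -0.03; limma adjusted p = 0.126). Il6ra followed Il6st from library to library. The Pearson correlation of their log2 levels was 0.93 over the 8 libraries and 0.94 after the group means were removed, the highest of any pair of the 8 genes in both cases. These 8 points share their libraries and the 2 groups, and the correlation is given as a description. The ratio of Il6ra to Il6st stayed between 0.380 and 0.456 in IL-2-KO and between 0.322 and 0.371 in WT. Every IL-2-KO ratio thus stood above every WT ratio, though the nearest were close. How many other gene pairs separate in this way was not computed, and Il6st by itself did not overlap between the groups. Il6st alone ran from 187 to 311 CPM in IL-2-KO and from 313 to 446 in WT.

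**Figure D3:**
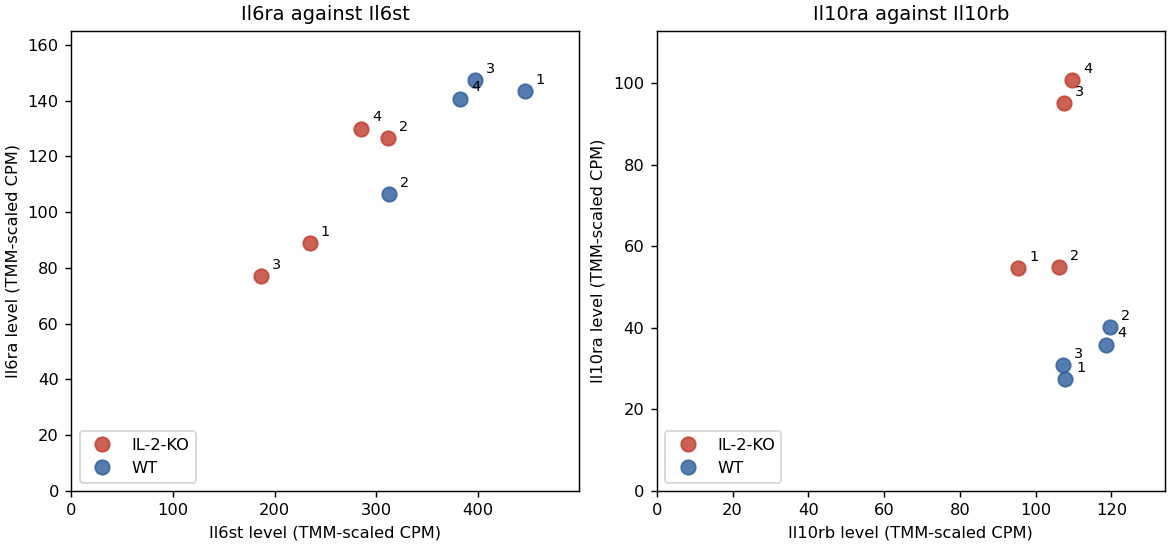
Level of Il6ra against Il6st (left) and of Il10ra against Il10rb (right), in TMM-scaled CPM, for each IL-2-KO library (red) and WT library (blue), with replicate numbers. Il6ra and Il6st rise together, with IL-2-KO replicate 3 at the low end (77.0 and 187 CPM). Each IL-2-KO library has more Il6ra per Il6st than any WT library, and Il6st alone also separates the groups. Il10ra differs between the groups at nearly the same Il10rb level.

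Il27ra (Entrez 50931, chromosome 8, 84030286 to 84042600) encodes the interleukin-27 binding chain, the other partner of gp130 among the 8. It had values of 689, 633, 554.5 and 565 CPM in IL-2-KO, and 645.5, 591, 652 and 668 CPM in WT. The groups overlapped, and the log2 change was -0.07 (-0.27 to 0.13; limma adjusted p = 0.625). The ratio of Il27ra to Il6st was 1.98 to 2.97 in IL-2-KO, against 1.45 to 1.89 in WT, so that each IL-2-KO library held more Il27ra per Il6st transcript count than any WT library. Il6st alone already separated the groups, and the share of other gene pairs with such ratios was not computed. The annotated Palm3 gene overlaps Il27ra. Its level was 100.4 ± 36.5 CPM in IL-2-KO and 132 ± 4.36 in WT (SD, n = 4 each), and the kit kept strand, but the sources used here do not say whether counting used it. The annotation also places Gm46811 over Il6ra and Mir7086 over Il10ra, neither of which has a value.

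Il21r (Entrez 60504) encodes the interleukin-21 receptor. It stood at 217, 194, 197 and 199 CPM in IL-2-KO replicates 1 to 4, and at 243, 222, 233 and 235 CPM in WT replicates 1 to 4. The groups did not overlap, and both were narrow, with coefficients of variation of 5.13% in IL-2-KO and 3.68% in WT. Il21r fell by 0.21 on the log2 scale (-0.36 to -0.07; limma adjusted p = 0.0444), to 0.863 times the WT level. This small change lost its call without IL-2-KO replicate 2, 3 or 4 (limma adjusted p = 0.104, 0.0877 and 0.0732) and without WT replicate 1, 3 or 4 (0.118, 0.113 and 0.120). It kept its call when IL-2-KO replicate 1 or WT replicate 2 was left out. The call also ended with cell number as a covariate (limma adjusted p = 0.0727), with replicate number as a block (0.113) and without the variance trend (0.0760). It ended too among the libraries of over 2 M cells (0.657) or of under 2 M cells (0.250). With both libraries that carry Cd4 and Lyz2 left out, the log2 change was -0.22 (limma adjusted p = 0.0671).

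Il4ra (Entrez 16190), its neighbour on chromosome 7, encodes the chain that binds interleukin-4 and, with a different partner, interleukin-13. Its values were 250, 207, 196 and 312 CPM in IL-2-KO, and 242, 265, 236 and 241 CPM in WT. The IL-2-KO libraries lay on both sides of the WT range. The log2 change was -0.05 (-0.35 to 0.24; limma adjusted p = 0.820), and its sign turned when IL-2-KO replicate 2 (0.01) or 3 (0.04) was left out. A change from 0.787-fold to 1.18-fold lies within the interval.

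Il7r (Entrez 16197, chromosome 15, 9506159 to 9529941), for the interleukin-7 receptor alpha chain, varied most. Values of 377, 528, 609 and 1038 CPM were found in IL-2-KO replicates 1 to 4, and of 438, 693, 888 and 776 CPM in WT replicates 1 to 4. The groups overlapped almost throughout, and the coefficient of variation was 44.4% in IL-2-KO and 27.4% in WT. The log2 change was -0.18 (-0.84 to 0.47; limma adjusted p = 0.709), so that levels between 0.559 and 1.39 times those of WT lie within the interval. Without IL-2-KO replicate 1 it was 0.04, and without IL-2-KO replicate 4 it was -0.45. Il7r was on average higher in the libraries of fewer cells in both groups. Within the IL-2-KO libraries of over 2 M cells the order was the other way, with 377 CPM at 26.7 M and 528 CPM at 42.6 M. Libraries from under 2 M cells averaged 823 CPM in IL-2-KO and 832 in WT, and those from over 2 M cells averaged 452 in IL-2-KO and 565 in WT. The lowest value of each group was its replicate 1, and the highest of all 8 came from the library with the fewest cells, IL-2-KO replicate 4. With cell number as a covariate the log2 change was -0.30 (-0.70 to 0.09; limma adjusted p = 0.270).

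**Figure D4:**
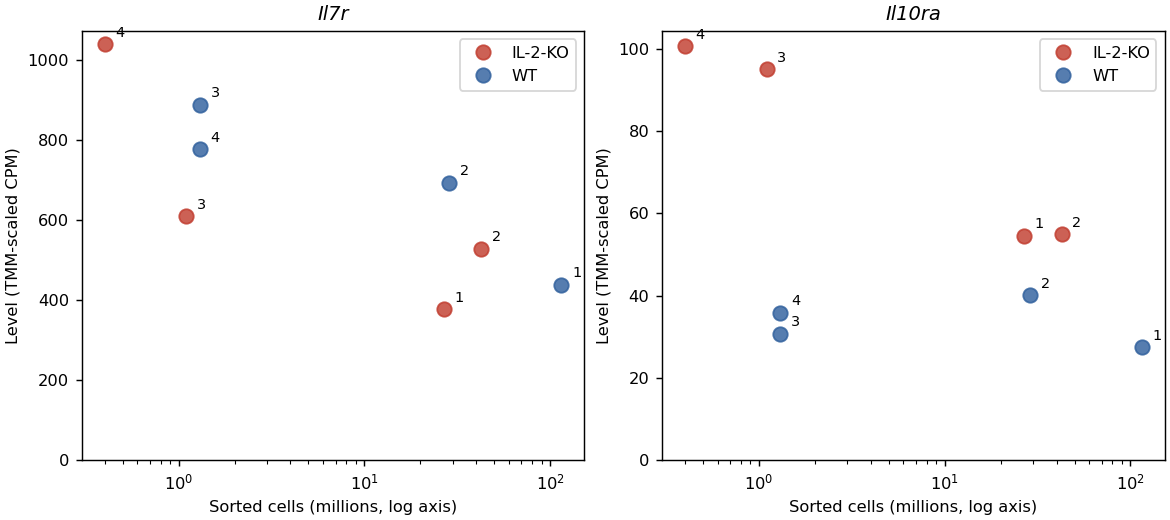
Level of Il7r (left) and Il10ra (right), in TMM-scaled CPM, against the number of sorted cells in M (1e6, log axis), for IL-2-KO (red) and WT (blue) libraries with replicate numbers. Il7r is at 609 CPM or more in the 4 libraries of under 2 M cells, but also at 693 CPM in WT replicate 2, from 28.7 M cells. Il10ra is at 95.1 and 100.7 CPM in the 2 IL-2-KO libraries of under 2 M cells and at 30.8 and 35.9 CPM in the WT ones.

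Levels of different receptor genes can be set against each other only per length, here CPM per kilobase of the principal GENCODE M21 transcript. In IL-2-KO the order was Il27ra (229 ± 23.6), Il7r (180.2 ± 80.1), Il21r (80.7 ± 4.14), Il10rb (56.6 ± 3.42), Il4ra (45.9 ± 10.01), Il6ra (31.6 ± 7.95), Il6st (29.3 ± 6.37) and Il10ra (21.8 ± 7.15), as CPM per kilobase with SD and n = 4. In WT it was Il27ra (239.9 ± 12.6), Il7r (197 ± 54.0), Il21r (93.4 ± 3.44), Il10rb (61.2 ± 3.64), Il4ra (46.8 ± 2.44), Il6st (44.3 ± 6.35), Il6ra (40.2 ± 5.65) and Il10ra (9.58 ± 1.61). Il27ra and Il7r overlapped in both groups, as did Il6ra and Il6st. In IL-2-KO Il4ra, at 37.2 to 59.3, overlapped both Il10rb (51.6 to 59.3) and Il6ra (23.0 to 38.9). In WT it was at 44.9 to 50.4 and overlapped only Il6st (36.0 to 51.4) among its neighbours in the order. On this scale Il10ra had the lowest mean of the 8 in both groups, although its IL-2-KO range (15.6 to 28.8) overlapped those of Il6st (21.5 to 35.9) and Il6ra. Over the union of all annotated basic exons, which is 8642 bases for Il6ra in place of 3343, Il6ra came to 12.2 in IL-2-KO and 15.6 in WT. In IL-2-KO it then stood below Il10ra (21.8), while in WT it remained above Il10ra (9.58). Il2rg, the common gamma chain, stood above all 8 at 441 ± 16.9 CPM per kilobase in IL-2-KO and 437 ± 7.43 in WT.

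The shared chain Il2rg itself was steady, at 770, 745, 729 and 703 CPM in IL-2-KO and 737, 745, 720.5 and 720 CPM in WT (log2 change 0.01; limma adjusted p = 0.928). Against it, the ratio of Il21r was 0.260 to 0.283 in IL-2-KO and 0.299 to 0.330 in WT. Il21r alone also did not overlap between the groups. The ratio of Il7r to Il2rg ran from 0.489 to 1.48 in IL-2-KO and from 0.595 to 1.23 in WT. For Il4ra it ran from 0.268 to 0.444 in IL-2-KO and from 0.327 to 0.355 in WT.

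The gene most similar to each receptor over the 8 libraries was taken among 9069 genes with a mean of at least 10 CPM, by the Pearson correlation of log2 levels. It was Atg12 for Il7r (r = 0.998), Ankrd39 for Il6ra (0.991), Plag1 for Il6st (0.991), Adora2a for Il10ra (0.987) and Zfp7 for Il21r (0.980). Osgepl1 (0.964) came nearest to Il10rb, Coq9 (0.963) to Il27ra and Ube3b (0.910) to Il4ra. The 8 points share their libraries and the 2 groups, and these correlations are a description.

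Among the ligands of these receptors, 6 were tested, of which 2 rose and 1 fell, beside 11.1% and 8.03% of all genes. The 2 that rose, Il21 and Lif, were under 1 CPM in every WT library. They passed the filter on low values only through IL-2-KO, so a call could fall in 1 direction only. With a minimum of 5 in at least 4 libraries, 3 ligands were tested, of which 0 rose and 1 fell. Il21, the ligand of Il21r, rose to 3.03 ± 0.712 CPM in IL-2-KO, against 0.515 ± 0.314 in WT (SD, n = 4 each), a log2 change of 1.83 (limma adjusted p = 0.00118). The single values were 2.95, 2.11, 3.82 and 3.24 CPM in IL-2-KO and 0.539, 0.927, 0.173 and 0.422 in WT, low in both groups and without overlap. The highest value of each group came from the libraries with Cd4 and Lyz2 transcripts, and without both the log2 change was 1.90 (limma adjusted p = 0.00124). At these levels the size rests on the pseudocount, with 2.47 at 0.1 and 1.00 at 2, and among the libraries of over 2 M cells it was 1.30 and did not pass (limma adjusted p = 0.137). Lif, a cytokine that signals through gp130, rose to 2.40 ± 1.42 CPM in IL-2-KO, against 0.200 ± 0.1997 in WT (limma adjusted p = 0.00398), a log2 change of 1.97 that was 3.19 with a pseudocount of 0.1 and 0.95 with 2. Among the libraries of under 2 M cells Lif did not pass (limma adjusted p = 0.158). Clcf1, another gp130 cytokine, fell by 0.58 on the log2 scale, with 160.1 ± 21.8 CPM in IL-2-KO, against 239 ± 23.9 in WT (limma adjusted p = 0.00478). Among the libraries of over 2 M cells its change was -0.30 (limma adjusted p = 0.362). The gp130 ligand genes Osm and Cntf did not pass, at 8.16 to 14.7 CPM in IL-2-KO and 8.58 to 11.4 in WT for Osm, and 4.34 to 6.45 in IL-2-KO and 4.85 to 5.25 in WT for Cntf. Ebi3, the partner subunit of interleukin-27, was at 3.35, 2.53, 10.8 and 0.950 CPM in IL-2-KO and 0.299, 3.79, 0.173 and 0.121 in WT (limma adjusted p = 0.113). It was highest in the library of each group with Cd4 and Lyz2 transcripts. Il10 did not pass the filter on low values, at 1.07, 0.911, 5.20 and 1.498 CPM in IL-2-KO and 0.097, 0.236, 0.0386 and 0.0995 in WT, again with the highest value of each group in those libraries. All 4 IL-2-KO values lay above all WT values, a separation found in that direction for 12.9% of all genes tested. With no filter the log2 change was 1.87 (0.95 to 2.78; limma adjusted p = 0.0111). Every WT value lay under the pseudocount of 0.5, so this size rests on it. Among the libraries of under 2 M cells Il10 was tested and did not pass (log2 change 2.57, limma adjusted p = 0.0734). The other 12 listed ligands, Il7, Il4 and Il6 among them, were not found by symbol among the genes with values and could not be tested.

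Of 6 further genes listed with the common gamma chain receptors 3 rose and 0 fell by limma (3 and 0 at an unadjusted p under 0.05), with 11.1% of all genes higher and 8.03% lower. The 6 include Il2rg itself and Crlf2, a chain that does not pair with it and did not pass (limma adjusted p = 0.151). Among the libraries of over 2 M cells, and among those of under 2 M cells, 1 of 6 rose. Il15ra, the private chain for interleukin-15, rose 1.70-fold (38.5 ± 6.48 CPM in IL-2-KO, against 22.2 ± 1.26 in WT; limma adjusted p = 0.00205). Il9r, for interleukin-9, stood at 5.29 ± 2.46 CPM in IL-2-KO, against 0.665 ± 0.347 in WT (limma adjusted p = 0.00302), with a log2 change of 2.21 that was 1.38 with a pseudocount of 2. Il2rb, the chain shared by interleukin-2 and interleukin-15, was at 489 ± 210.0 CPM in IL-2-KO, against 218 ± 23.3 in WT (limma adjusted p = 0.0117). Of 3 genes of the gp130 and interleukin-12 receptor type 1 rose, Il12rb1, a chain for interleukin-12 and interleukin-23, with 47.3 ± 3.92 CPM in IL-2-KO, against 23.1 ± 2.85 in WT (limma adjusted p = 1.95e-04). Of the 9 listed, only these 3 had a value. Lifr, Osmr and Cntfr, chains for gp130 cytokines, were among those without 1. Whether any of the ligands above acts on these cells was not tested.

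Of 5 further class II cytokine receptors, the family of Il10ra and Il10rb, 1 rose and 1 fell, beside 11.1% and 8.03% of all genes. Among the libraries of over 2 M cells 0 rose and 1 fell, and among those of under 2 M cells 0 rose and 0 fell. Without the variance trend 0 rose and 1 fell. Ifngr2, the accessory chain for interferon gamma, fell by 1.13 on the log2 scale, with 25.1 ± 6.39 CPM in IL-2-KO, against 54.5 ± 6.29 in WT (limma adjusted p = 0.00182). Ifnar2, a chain of the type I interferon receptor, rose 1.203-fold (limma adjusted p = 0.0314). The Ifnar2 call was lost without IL-2-KO replicate 2 or 3 (limma adjusted p = 0.0604 and 0.0714) or WT replicate 1, 3 or 4 (0.0791, 0.106 and 0.0867).

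Downstream, 2 of 4 JAK kinase genes and 2 of 6 listed STAT genes rose by limma, beside 11.1% of all genes. Of either list 0 fell (0 of each also at an unadjusted p under 0.05), beside 8.03% of all genes. Among the libraries of over 2 M cells, and among those of under 2 M cells, 1 of 4 JAK and 0 of 6 STAT genes rose. With 1 library left out at a time, 1 to 2 JAK and 2 to 3 STAT genes rose. With replicate number as a block 1 JAK gene rose. Jak3, the kinase bound by the common gamma chain, rose 1.66-fold, with 550.3 ± 36.3 CPM in IL-2-KO, against 331 ± 20.2 in WT (limma adjusted p = 1.95e-04). Jak2 rose 1.21-fold (limma adjusted p = 0.0191). That call did not hold when IL-2-KO replicate 2 (0.0536) or WT replicate 1, 3 or 4 (0.0605, 0.0659 and 0.0608) was left out. Jak1, which serves all of these receptors, was at 939 to 1767 CPM in IL-2-KO and 1053 to 1290 in WT, and Tyk2 at 121 to 137 CPM in IL-2-KO and 132 to 138 in WT.

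Stat2, a factor of the type I interferon response, rose 1.73-fold (limma adjusted p = 0.00760) and Stat3, the main STAT of gp130 and the interleukin-10 receptor, rose 1.39-fold (277.5 ± 29.8 CPM in IL-2-KO, against 199 ± 5.14 in WT; limma adjusted p = 0.00323). Stat4, Stat5a, Stat5b and Stat6, the STAT of interleukin-4, did not pass. Stat5a stood at 102 to 124 CPM in IL-2-KO and 90.7 to 102 in WT, and Stat5b at 193 to 229 in IL-2-KO and 227 to 252 in WT. Stat4 stood at 297 to 402 CPM in IL-2-KO and 269 to 318 in WT, and Stat6 at 260 to 288 in IL-2-KO and 277 to 301.5 in WT. With 2 libraries a group, the log2 change of Stat3 was 0.52 among the libraries of over 2 M cells (limma adjusted p = 0.119) and 0.43 among those of under 2 M cells (0.154).

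Negative regulators of cytokine signalling were tested for 17 genes, of which 3 rose and 1 fell by limma (3 and 4 at an unadjusted p under 0.05), beside 11.1% and 8.03% of all genes. With 1 library left out at a time, 1 to 2 rose and 0 to 2 fell. Among the libraries of over 2 M cells 0 rose and 0 fell, and among those of under 2 M cells 1 rose and 0 fell. Without the variance trend, and with replicate number as a block, 1 rose and 0 fell. Socs3, an inhibitor that binds gp130 and is induced by STAT3, had the smallest adjusted p among them, at 143, 109, 179 and 111 CPM in IL-2-KO and 42.3, 85.4, 38.9 and 49.4 CPM in WT. Its groups did not overlap, and it rose 2.57-fold (limma adjusted p = 0.00354). IL-2-KO replicate 3 and WT replicate 2 had the highest Socs3 of their group, and without both the log2 change was 1.46 (limma adjusted p = 2.93e-04). Among the libraries of over 2 M cells it was 1.05 (limma adjusted p = 0.124). The other 3 calls each depended on single libraries. Ptpn11, the phosphatase SHP2, rose 1.32-fold (limma adjusted p = 0.0396), a call lost without IL-2-KO replicate 2 or 4 or any 1 WT library (limma adjusted p from 0.0706 to 0.106). Pias1 fell by 0.31 on the log2 scale (limma adjusted p = 0.0395), a call lost without IL-2-KO replicate 1, 2 or 3 or WT replicate 2, 3 or 4 (from 0.0591 to 0.127). Socs1, named here beyond the naming rule because it completes the count, rose 1.67-fold (limma adjusted p = 0.0406), a call lost without IL-2-KO replicate 1, 2 or 3 or WT replicate 1, 3 or 4 (from 0.0558 to 0.110).

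**Figure D5:**
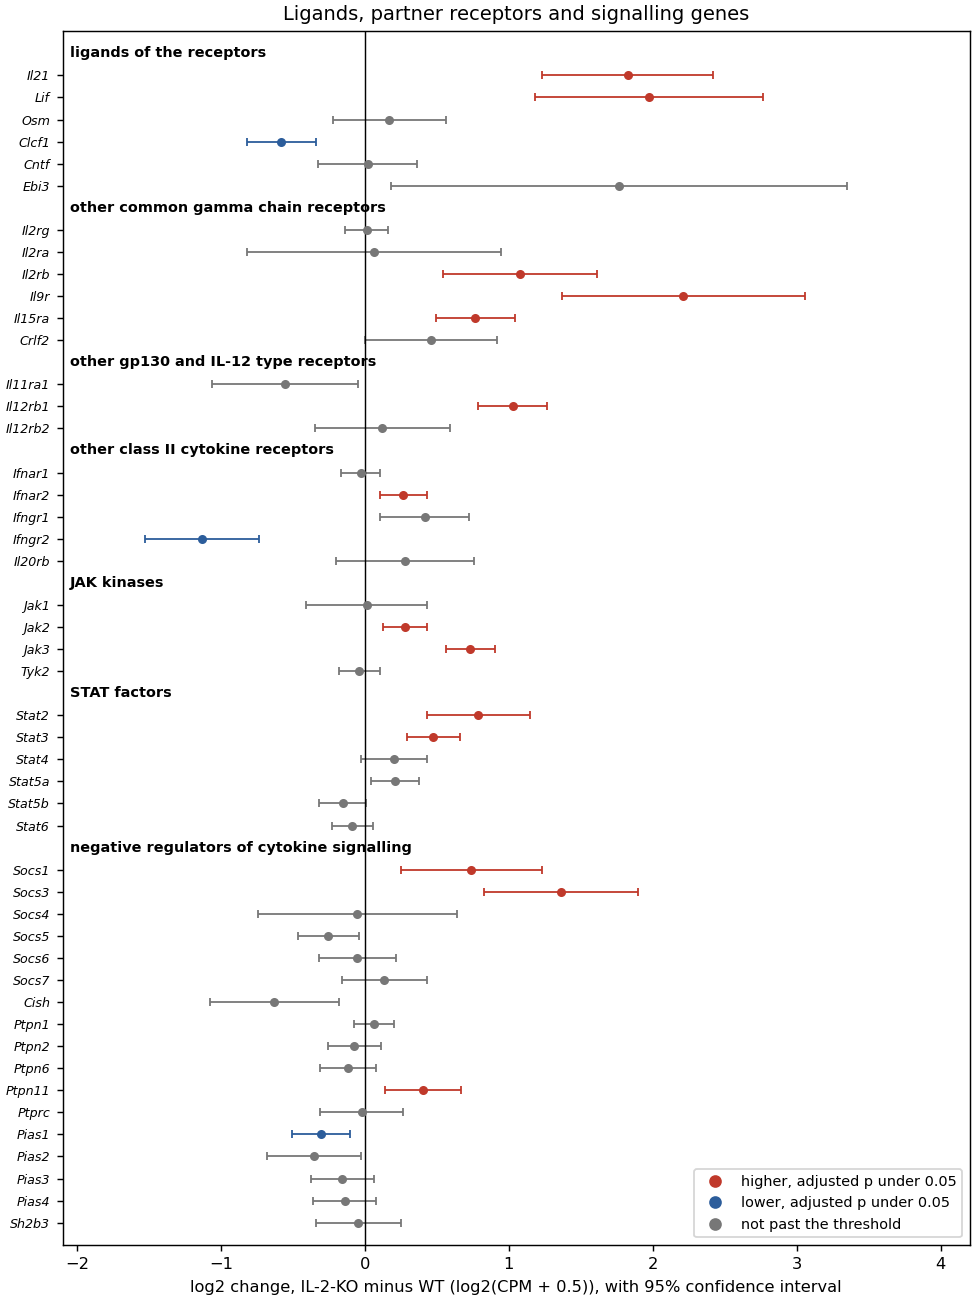
Log2 change, IL-2-KO minus WT on the log2(CPM + 0.5) scale, with 95% confidence intervals by limma, for every tested gene of the ligand, partner receptor, JAK, STAT and negative regulator lists. Red marks genes called higher, blue genes called lower and grey genes that did not pass. Jak3 (0.73), Stat3 (0.48) and Socs3 (1.36) are past the threshold upward, and Ifngr2 (-1.13) and Clcf1 (-0.58) downward.

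Genes that STAT3 induces or works with in T cells rose in 10 of 14 tested cases and fell in 0 by limma (11 and 0 at an unadjusted p under 0.05). Of all genes tested, 11.1% rose and 8.03% fell. The median log2 change was 1.00 for the list and -0.0097 for all genes tested. Irf4 and Bcl3, transcriptional regulators of activated lymphocytes, had the smallest adjusted p, with 70.2 ± 6.64 CPM in IL-2-KO, against 24.1 ± 2.83 in WT for Irf4 (limma adjusted p = 5.4e-05). Bcl3 was at 66.8 ± 15.2 CPM in IL-2-KO, against 17.3 ± 0.453 in WT (limma adjusted p = 7.7e-05). Socs3 and Il21 are also on this list. With a minimum of 5 in at least 4 libraries, which leaves Il21 out, 7 of 9 rose and 0 fell. The list was drawn up with results of these samples known, so the count is not independent evidence of a direction. Without IL-2-KO replicate 3 and WT replicate 2 the count was 11 of 14. It was 2 of 14 in the libraries of over 2 M cells and 6 of 15 in those of under 2 M cells, with 2 libraries a group.

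Of 14 transcription factor genes that have been linked to Il7r control, 2 fell and 0 rose by limma (5 and 1 at an unadjusted p under 0.05), beside 8.03% and 11.1% of all genes. The number that fell was 4 without IL-2-KO replicate 4, 3 without IL-2-KO replicate 3 and 1 without WT replicate 3 or 4. Among the libraries of over 2 M cells, and among those of under 2 M cells, 0 of 14 rose and 0 fell. Foxp1, a forkhead factor of naive T cells, fell by 0.59 on the log2 scale (252 ± 17.7 CPM in IL-2-KO, against 382 ± 38.9 in WT; limma adjusted p = 0.00139). Runx1 fell by 0.48 (limma adjusted p = 0.0206), and did not pass when WT replicate 3 (0.0729) or 4 (0.0523) was left out. In the interleukin-7 survival list 1 of 9 rose and 2 fell by limma (2 and 2 at an unadjusted p under 0.05), beside 11.1% and 8.03% of all genes. The number that fell was 1 without IL-2-KO replicate 1, 2 or 3 or WT replicate 2, 3 or 4. In either set by cell number 0 of 9 rose and 0 fell. With the GC and length correction 0 rose and 1 fell. Pim2, a survival kinase gene, rose 1.35-fold (241 ± 15.6 CPM in IL-2-KO, against 179 ± 9.23 in WT; limma adjusted p = 0.00249). Cdkn1b, the cell cycle inhibitor p27, fell by 0.51 (162 ± 15.5 CPM in IL-2-KO, against 230.3 ± 20.9 in WT; limma adjusted p = 0.00385). Bcl2, the survival gene best known as an interleukin-7 target, fell by 0.34 (171 ± 13.8 CPM in IL-2-KO, against 218 ± 29.3 in WT; limma adjusted p = 0.0414). The groups of Bcl2 overlapped, and its call was lost without IL-2-KO replicate 1, 2 or 3 or WT replicate 2, 3 or 4 (limma adjusted p from 0.0779 to 0.129).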

How the data were processed

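RNA-seq libraries of 8 sorted CD8 T cell samples were compared, 4 IL-2-KO and 4 WT. Each value in the authors' deposited table is a signal on a linear scale: counts per 1e6 of a library size adjusted by TMM, going by its name. Builds GRCm38 and mm10, featureCounts, R 3.4.3 and limma 3.34.9 are named in the submitters' processing notes. Aligner and strand setting are not given in the sources used here. Columns summed to 988292 to 1022953. Low values stepped by hundredths of a read, and 54.6% to 65.0% of those under 20 were whole reads (within 0.001), so no test of whole counts was run. The design had planned for CPM, and the same test was kept for this signal. Every one of the 8 columns was matched to a sample by its title. Libraries of 1 group differed by a chi-square of 5.03 or more per gene, so none was a duplicate.

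Entrez identifiers were paired with RefSeq GRCm38.p6 symbols (11651 matched, 72 not). Values were transformed as log2(value + 0.5), and genes with at least 1 in at least 4 libraries were kept (11530). limma 3.58.1 in R 4.3.3 (empirical Bayes with a trend) compared IL-2-KO with WT, with Benjamini-Hochberg adjustment over all genes tested and a threshold of 0.05. The steps were tested on simulated data. The 8 receptor genes and the gene lists were chosen with earlier results of these data known. Named were all 8, the listed ligands, the JAK and STAT genes, up to 3 passing genes per other list and the most similar gene. One item of the signalling lists is not reported here and is left out of their counts. Alternatives changed the pseudocount, filter, scaling, variance model, covariates and libraries, and a GC and length correction was added after the data were seen.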

Additional observations from a re-analysis of the deposited data

Results flagged for a closer look

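Il6ra in WT replicate 2 stood at 106 CPM, against 141 to 147 CPM in the other WT libraries, and this gap took up 0.842 of the range of the group, above the 0.829 that Dixon's test allows for 4 values. It was the 1 value so marked among 16 groups of 4 checked (8 receptor genes in IL-2-KO and in WT), and chance marks about 1 group in 20. The same library carried Cd4 at 38.6 and Lyz2 at 39.97 CPM, and their part in its Il6ra value was not tested.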

How the results depend on the processing

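Of 176 values of the 8 receptor genes under 22 alternatives, 150 kept their direction and their side of the threshold, 20 lost a call and 6 changed sign, all 6 for genes that had not passed. Il10ra was higher under each of them. It missed the threshold without the libraries of under 2 M cells (0.72), where limma called 0 receptor genes higher and 0 lower (1 and 0 at an unadjusted p under 0.05). Il6st lost its call with the replicate block (-0.61), and also when the libraries of under 2 M cells (-0.47) or of over 2 M cells (-0.76) were left out. Il21r lost its call with no trend (-0.21), the cell number covariate (-0.21), the replicate block (-0.21), without the libraries of under 2 M cells (-0.18) or over 2 M cells (-0.24) and without both libraries that carry Cd4 and Lyz2, IL-2-KO replicate 3 and WT replicate 2 (-0.22). The number of lower receptor genes was thus 1 with no trend, with the covariate and without those 2 libraries, and 0 with the block, where 2 were lower at an unadjusted p under 0.05, and in either set by cell number (0 over 2 M and 1 under 2 M unadjusted). Signs changed for Il4ra without the libraries of over 2 M cells (0.05), without both Cd4-carrying libraries (0.08) and without IL-2-KO replicate 2 (0.01) or 3 (0.04), for Il7r without IL-2-KO replicate 1 (0.04) and for Il27ra without the libraries of under 2 M cells (0.10). Settings that leave libraries out also have fewer of them, while no trend, the covariate and the block keep all 8. The cause of the lost calls and changed signs was not tested.

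With 1 library left out at a time, 1 receptor gene was higher throughout and 0 to 2 were lower. Log2 changes ran from -0.45 to 0.04 for Il7r, -0.18 to 0.04 for Il4ra, -0.25 to -0.19 for Il21r, -0.72 to -0.47 for Il6st, 0.98 to 1.27 for Il10ra, -0.48 to -0.23 for Il6ra, -0.13 to -0.03 for Il27ra and -0.14 to -0.07 for Il10rb. Over all genes, 853 to 1306 were then higher and 437 to 941 lower, against 1285 and 926, with the fewest without WT replicate 3, and 565 lower without WT replicate 1 and 466 without WT replicate 4. Array weights called 2240 higher and 2119 lower, the libraries of over 2 M cells alone 310 and 54, and those of under 2 M cells alone 368 and 89. Same-numbered libraries did not deviate together (correlations of 0.08, -0.53, -0.40 and 0.39 for numbers 1 to 4), so the numbers are taken as names. The replicate block called 486 genes lower. The 24 other named genes kept direction in all 525 values and lost the call in 88. Il9r, Il21 and Lif gave no value with a minimum of 5.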
